A study of Mus musculus with 12 samples.

Results

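Interferon-stimulated genes were examined as a group of 39 genes around Ifi27l2a in the chromatin accessibility data of mouse brown and inguinal fat. A peak was a member when the symbol assigned to it in the deposited tables was one of these genes. In brown fat, 74 of 58558 peaks belonged to 30 of the 39 genes, out of 17116 genes named in that table. In inguinal white fat (iWAT), 62 of 39558 peaks belonged to 34 of the genes, out of 15963. No member peak was listed in either table for Isg15, Ifi44, Oas1a, Oas3 or Psmb9, and Ifit3, Oas2, Oasl2 and Mx1 had peaks in iWAT alone.

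All mice were C57BL/6 and carried the floxed allele of BAF60a, which Smarcd1 encodes and which forms part of SWI/SNF, a nucleosome remodeling complex. AKO mice carried in addition a Cre transgene under the Adiponectin promoter, which deletes the gene in adipocytes, whereas flox/flox littermates served as control (flox). ATAC-seq reads open chromatin through the cuts of a transposase, and it was run on nuclei of the whole depot, so that immune, endothelial and stromal nuclei with an intact gene contributed to every value. For brown fat, 3 flox and 3 AKO mice were measured one by one, and their age and housing temperature are not given in the sources used here. For iWAT, the tissue of 6 mice per genotype was pooled and split into 3 aliquots, after the mice, 6 to 8 months old, had spent 7 days at 10 °C. P-values in iWAT therefore describe the spread between aliquots of 1 pool and not between mice.

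Interferons are cytokines that cells release upon sensing of viral or misplaced nucleic acid. Type I interferons act through a receptor pair and JAK kinases on a complex that holds STAT2 and IRF9 and binds the interferon-stimulated response element (ISRE) in the promoters of target genes. The gamma-activated site (GAS) is a further motif of interferon targets. The targets include sensors of viral RNA, proteins that block viral entry, translation or release, enzymes of the ISG15 ubiquitin-like system, and parts of the antigen presentation machinery. Ifi27l2a belongs to a family of small hydrophobic proteins that interferon induces.

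The ISRE was searched as GAAA, any 2 bases, GAAA, and the GAS as TTCNNNGAA, on both strands of the mm10 genome. Among peaks within 1 kb of the start site of their own gene (start-site peaks hereafter), 20 of 28 member peaks in brown fat and 23 of 32 in iWAT held an ISRE match, which is 71.4% and 71.9%. Of all start-site peaks, 7.48% held one in brown fat and 5.88% in iWAT. This background takes every peak within 1 kb of the nearest start of a coding gene, whichever gene the peak was assigned to. It was not matched for base composition. The median GC content of start-site peaks was 55.2% for members and 62.4% for all in brown fat, and 54.3% and 64.2% in iWAT. GAS matches were found in 9 of 28 and 9 of 32 member start-site peaks, or 32.1% and 28.1%, against 17.3% and 13.2% of all start-site peaks. A window of 300 bases around the midpoint of each peak, where widths no longer differ, was searched as well. It held an ISRE match for 13 of 74 brown fat and 15 of 62 iWAT member peaks, against 3.17% and 2.97% of all peaks. At peaks narrower than 300 bases this window reaches past the peak. In 10 of the 20 brown fat and 11 of the 23 iWAT start-site peaks with a match, at least 1 match lay within 100 bases of the annotated start. Both motifs can overlap, as in the promoter of Bst2. A match describes letters only, and no factor was measured.

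**Figure D1:**
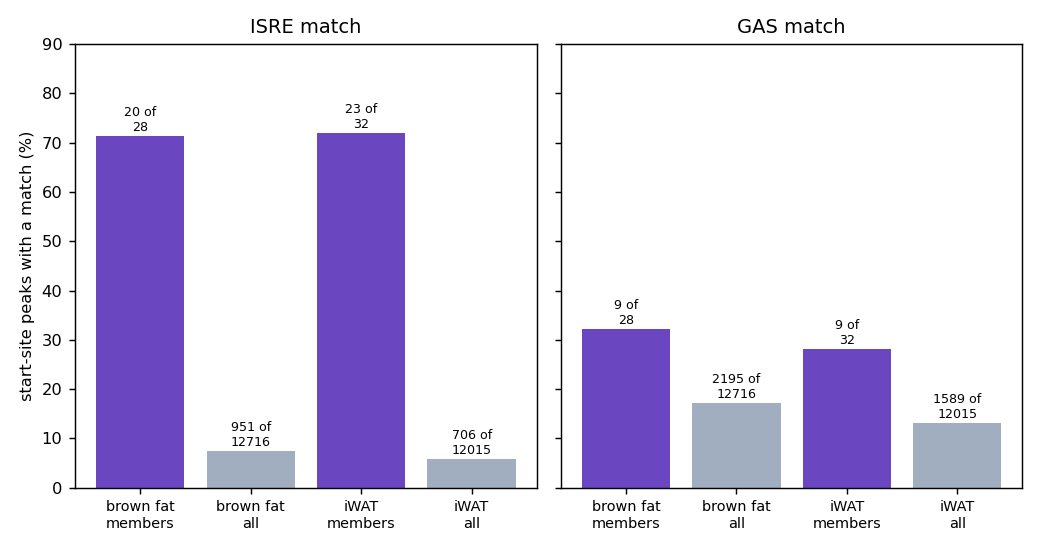
Share of start-site peaks (%, y axis) that hold at least 1 ISRE match (left) or GAS match (right), for the member genes (purple) and for all start-site peaks of the same table (grey), with counts above the bars. ISRE matches stand in 71.4% of member peaks in brown fat and 71.9% in iWAT, against 7.48% and 5.88% of all start-site peaks.

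The ISRE sites below are a selection from the start-site peaks whose values are given in the results, and other such peaks with a match are not shown. They are 30 bases each, 5′ to 3′ on the strand of the gene, from the mm10 genome, and capitals mark the match, which reads GAAA on one strand and TTTC on the other. Ddx58, Gbp3 and Oas2 had lower iWAT values in AKO, Eif2ak2 had higher ones, and the groups overlapped in both tissues at Usp18, Stat2 and Bst2.
Ddx58 (chr4:40239804-40239833, minus strand): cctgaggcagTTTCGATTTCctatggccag
Gbp3 (chr3:142559989-142560018, plus strand): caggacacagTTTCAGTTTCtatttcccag
Oas2 (chr5:120749905-120749934, minus strand): cacacttgagTTTCGATTTCctaggttcct
Ifit1 (chr19:34640794-34640823, plus strand): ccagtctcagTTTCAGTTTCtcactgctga
Ifit3 (chr19:34583397-34583426, plus strand): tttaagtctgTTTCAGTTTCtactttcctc
Ifi27 (chr12:103434210-103434239, plus strand): gagagctgggGAAATCGAAActtatttcag
Psmb8 (chr17:34198335-34198364, plus strand): gtactgtggcTTTCGCTTTCacttccttgt
Eif2ak2 (chr17:78882535-78882564, minus strand): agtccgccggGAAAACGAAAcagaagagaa
Usp18 (chr6:121245837-121245866, plus strand): ggatctagggGAAAACGAAAgcttggcggt
Stat2 (chr10:128270266-128270295, plus strand): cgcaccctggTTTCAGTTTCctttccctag
Bst2 (chr8:71537577-71537606, minus strand): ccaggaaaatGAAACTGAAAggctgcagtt
Ddx58 and Oas2 share the same 10 letters in capitals, as do Gbp3, Ifit1, Ifit3 and Stat2, and also Eif2ak2 and Usp18. Irf1, a transcription factor gene that interferon gamma induces, had no ISRE match in its start-site peak but a GAS match (capitals) 86 bases before its start.
Irf1 (chr11:53769914-53769942, plus strand): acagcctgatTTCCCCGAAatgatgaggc

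None of the Ifi27l2a peaks held an ISRE match in either table. The iWAT peak assigned to Ifi27l2a that showed the largest difference among all member peaks is printed in full. It spans 293 bases, 4.38 kb downstream of the Ifi27l2a start, and lies in the neighbouring gene Ifi27: an intron makes up most of it, and its last 45 bases are coding sequence of an Ifi27 exon.
Ifi27l2a-assigned peak (chr12:103439153-103439445, mm10, plus strand): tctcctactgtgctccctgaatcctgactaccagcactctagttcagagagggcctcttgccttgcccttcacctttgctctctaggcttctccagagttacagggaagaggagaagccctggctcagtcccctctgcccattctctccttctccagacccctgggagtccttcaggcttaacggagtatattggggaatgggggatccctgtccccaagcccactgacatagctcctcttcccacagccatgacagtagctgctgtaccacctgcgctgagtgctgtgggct

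Values are normalized reads per peak, that is reads divided by 1 size factor per sample. Reads in peaks ranged from 6336670 to 27500738 in brown fat and from 4066720 to 6691161 in iWAT, and the median peak held 70 to 226 and 62 to 98 reads. Brown fat AKO replicate 2 had the fewest reads and stood apart, with a score of -112 on the first principal component (PC1), which carried 55.6% of the variance. Flox replicates 1 to 3 scored 98.2, 41.8 and -14.6, and flox replicate 1 had the most reads. AKO replicates 1 and 3 scored 0.617 and -13.5. The scores thus differed with depth and with genotype, and these were not separated. PC1 entered the brown fat test as a covariate. In iWAT PC1 (33.8%) separated the genotypes, and none was used. At Smarcd1 itself, a brown fat peak 1173 bases past the start held 136, 201 and 185 normalized reads in flox, against 23.7, 57.9 and 26.9 in AKO, whereas the iWAT table listed only a start-site peak, which overlapped between genotypes. All 8 adipocyte and all 6 brown or beige adipocyte marker genes had peaks in both tables.

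Across the whole group, no member peak passed an adjusted p of 0.1 in limma in either tissue, as was true of all peaks: 0% of peaks were called lower and 0% higher in brown fat and likewise in iWAT. The smallest adjusted p of a member was 0.43 in brown fat and 0.15 in iWAT. In iWAT, 7 member peaks had an unadjusted limma p under 0.05 with lower and 5 with higher values in AKO, beside 7.42% and 7.61% of all peaks. DESeq2, run on the recovered reads, called 3 of the 62 iWAT member peaks lower and 0 higher, where it called 0.63% and 0.546% of the 35723 peaks it tested. Those 3 were the Ifi27l2a-assigned peak printed above and the start-site peaks of Ddx58 and Gbp3. edgeR called 6 members lower and 2 higher, beside 2.52% and 2.15% of all peaks, and limma-trend 6 and 1, beside 2% and 1.64%.

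In iWAT the values of all 3 AKO aliquots lay under those of all 3 flox aliquots in 13 of 62 member peaks (21.0%), beside 10.3% of all peaks, and above them in 5 (8.06%), beside 10.6%. The lower ones lay mostly at promoters: 9 of 32 start-site peaks (28.1%) were lower without overlap and 1 was higher, where 9.56% and 9.51% of all start-site peaks were. The log2 fold change was below 0 at 26 of the 32 start-site peaks and had a median of -0.17, whereas the median over all start-site peaks was 0.00. The summed reads of the 32 peaks were 5232, 5033 and 5057 in flox, against 4570, 4480 and 4590 in AKO, a difference of the means of -11.0%, and the sums of the genotypes did not overlap. Without flox replicate 2, 25 of the 62 member peaks were lower without overlap, beside 18.2% of all peaks, and without any other single aliquot 14 to 19 were, beside 14.2% to 15.7% of all peaks. Over all start-site peaks, the summed reads differed by -0.253%. No member list of 3 against 3 samples can give a two-sided exact permutation p under 0.1. The lists here were also chosen with results known, so these sums carry no test.

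In brown fat, 7 of 74 member peaks (9.46%) were lower without overlap and 7 were higher, beside 8.84% and 8.77% of all peaks. At an unadjusted limma p under 0.05, 6 were lower and 3 higher, beside 5.59% and 3.46% of all peaks. DESeq2 called 0 members, and 0.298% of all tested peaks lower and 0.11% higher, whereas edgeR called 0 members (0.114% of all peaks lower and 0.029% higher) and limma-trend also 0 (0.0751% and 0.0154%). The median log2 fold change of the member peaks was 0.11 with PC1 as covariate (all peaks, 0.01) and -0.04 without it (all peaks, -0.01), and 25 of the 74 peaks changed sign between these fits. Among start-site peaks the median was 0.20 for the 28 members and 0.11 for all start-site peaks, and 1 member (3.57%) was lower and 4 (14.3%) were higher without overlap, beside 6.07% and 9.96% of all start-site peaks. Leaving out a sample, which leaves fewer values to overlap, raised the counts without overlap among members and among all peaks. Without flox replicate 3, 14 member peaks were lower and 14 higher without overlap, beside 16.9% and 19.8% of all peaks. Without AKO replicate 1 these were 12 and 11, beside 15.3% and 15.1%. Without AKO replicate 2 they were 10 and 13, beside 12.9% and 11.4%. In that fit 6 and 4 passed the unadjusted threshold, for which the share of all peaks was not counted.

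**Figure D2:**
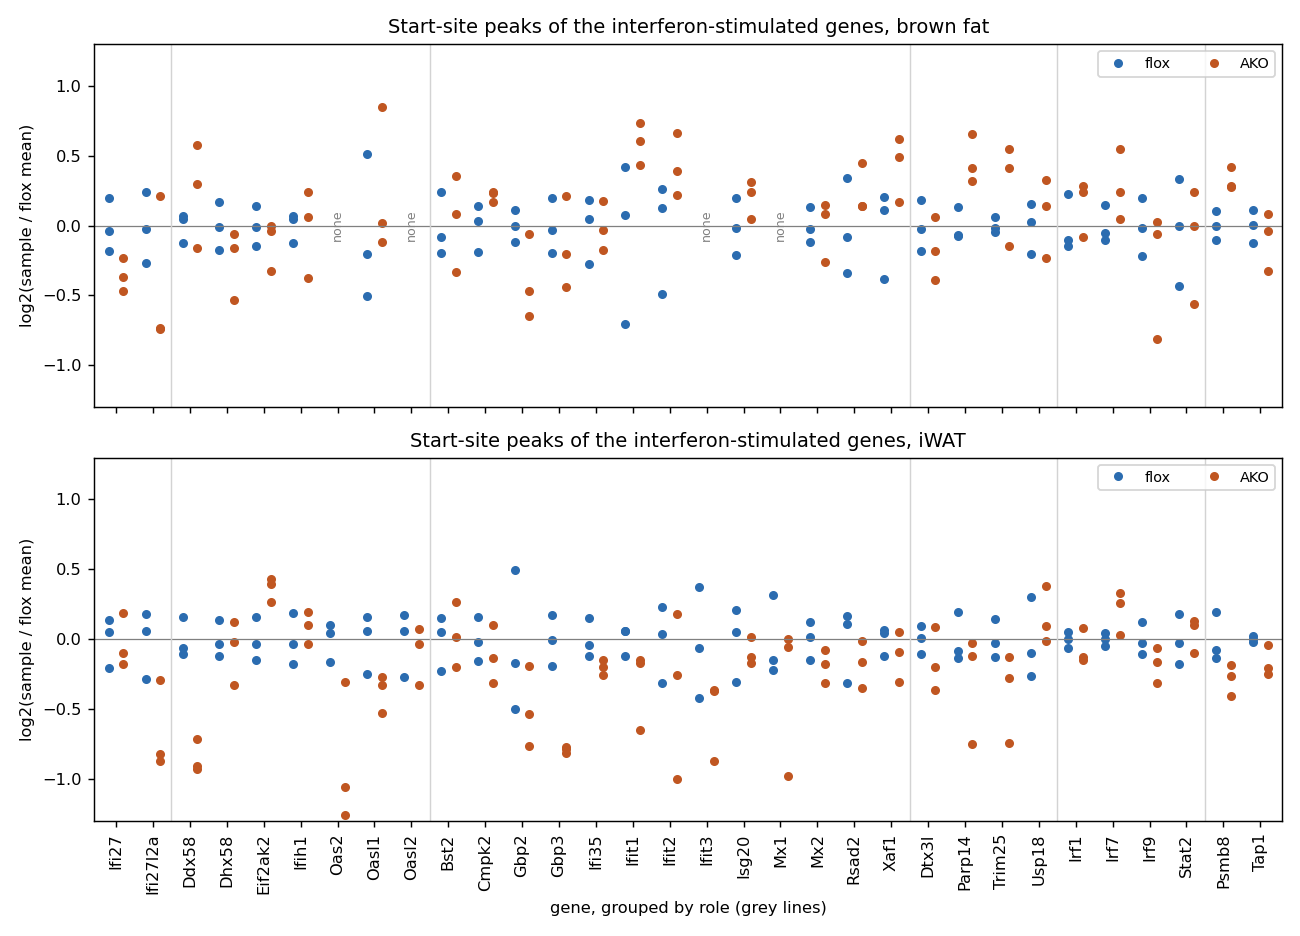
Start-site peaks of the member genes in brown fat (top) and iWAT (bottom), each sample as log2 of its normalized reads over the flox mean (y axis), with flox in blue and AKO in orange and genes grouped by role. In iWAT the AKO points of Ddx58, Gbp3, Oas2 and Ifi27l2a lie under all flox points, whereas those of Eif2ak2 lie above, and "none" marks genes with no start-site peak.

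Markers of other cells were counted in the same tables. In iWAT the peaks of the general leukocyte genes Ptprc, Coro1a and Laptm5 summed to 362 to 388 normalized reads in flox. In AKO they summed to 279 to 342.5, without overlap. Of their 5 peaks, 3 were lower at an unadjusted limma p under 0.05, beside 7.42% of all peaks. Only 4 of 10 macrophage genes had a peak there (282 to 329 in flox, 253 to 315 in AKO), with none for Cd68, Mrc1, Fcgr1, C1qa, Lyz2 and Cd163, and 3 of 10 lymphocyte genes had one (411 to 417 in flox, 337 to 426 in AKO). In brown fat, the peaks of Coro1a and Laptm5 (Ptprc had none) summed to 947 to 1008 in flox, against 863 to 891 in AKO. Macrophage peaks of 5 of 10 genes summed to 450.0 to 604 in flox, against 612 to 635 in AKO. Both were without overlap but in opposite directions, AKO being lower for Coro1a and Laptm5 and higher for the macrophage genes. Lymphocyte peaks of 3 of 10 genes summed to 301 to 389 in flox and 339 to 558 in AKO, which overlapped. Peaks of brown or beige adipocyte genes summed to 14356 to 18733 in flox, against 9468 to 10955 in AKO brown fat, but to 1177 to 1208 in flox, against 1242 to 1373 in AKO iWAT, so that AKO was lower in brown fat and 10.2% higher in the mean in iWAT, each without overlap. Peaks of general adipocyte genes summed to 24887 to 28443 in flox, against 17478 to 23528 in AKO brown fat, again without overlap, and to 3966 to 5222 in flox, against 4182 to 4520 in AKO iWAT. Of the fibroblast and preadipocyte peaks in brown fat, 6 of 16 were higher and 1 lower without overlap, beside 8.77% and 8.84% of all peaks. Their sums overlapped (2226 to 2304 in flox, 2250.1 to 2274 in AKO). The sums of endothelial and muscle genes overlapped in both tissues. The part of cell composition in the results for interferon-stimulated genes was not tested. In whole tissue, fewer cells of a type and less open chromatin per cell cannot be told apart.

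The Ifi27 family, Ifi27, Ifi27l2a and Ifi27l2b, lies side by side on chromosome 12, and it held the most negative member peaks of both tissues. Between chr12:103433996 and 103493065 the log2 fold change was below 0 at all 7 iWAT peaks and at 7 of 8 brown fat peaks, and every peak in that interval belonged to one of the 3 genes. The genotypes did not overlap at 3 of the 7 iWAT peaks and 4 of the 8 brown fat peaks, all lower in AKO. Outside the locus, 3 of 66 brown fat member peaks (4.55%) and 10 of 55 iWAT member peaks (18.2%) were lower without overlap, beside 8.84% and 10.3% of all peaks, so that in brown fat most of the lower peaks came from this locus. Neighbouring peaks of a locus are not independent.

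The Ifi27l2a-assigned iWAT peak 4.38 kb past the start held 82.0, 80.1 and 87.8 normalized reads in flox, against 27.7, 37.7 and 23.5 in AKO. All AKO aliquots lay far under the lowest flox value, and the mean was 64.4% lower. The log2 fold change was -1.49 (SE 0.19, n = 3 aliquots per genotype; limma unadjusted p = 6.9e-05, adjusted p = 0.15), the most negative of the 62 member peaks. DESeq2 gave -1.50 with an adjusted p of 0.00046. Leaving out each aliquot in turn moved the limma value between -1.67 and -1.34. The brown fat table listed no peak there.

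At the Ifi27l2a start site itself (chr12:103443164-103443842 in iWAT, covering the first exon, its 5′ UTR and the second exon), iWAT values were 158, 125 and 172 in flox, against 83.0, 85.6 and 124 in AKO. The groups were separated only narrowly, by the lowest flox and the highest AKO aliquot, with a log2 fold change of -0.64 (SE 0.21, limma unadjusted p = 0.016, adjusted p = 0.23, DESeq2 adjusted p = 0.11). In brown fat the start-site peak (chr12:103442849-103443763) held 199, 283 and 235 in flox, against 143, 276 and 144 in AKO. AKO replicates 1 and 3 lay under all flox mice, but replicate 2, the shallow sample, lay among them. With PC1 as covariate the log2 fold change was -0.88 (SE 0.27, limma unadjusted p = 0.013, adjusted p = 0.48), and without it -0.40 (unadjusted p = 0.20). Across the leave-one-out fits it ranged from -1.40 to -0.74.

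Ifi27, the neighbour transcribed towards Ifi27l2a, had a start-site peak with 561, 477 and 431 normalized reads in brown fat of flox mice and 379, 353 and 417 in AKO. In iWAT this peak held 155, 146 and 122 in flox, against 160.2, 124 and 132 in AKO. The genotypes were apart in brown fat and overlapped in iWAT, where the log2 fold change was -0.02. An intronic Ifi27 peak 3.6 kb past the start had 508, 479 and 476 in flox, against 334, 265 and 409 in AKO brown fat, and 113, 118 and 96.4 in flox, against 85.3, 81.1 and 94.1 in AKO iWAT. This was the single member peak with lower values and no overlap in both tissues, with log2 fold changes of -0.34 (SE 0.21, unadjusted p = 0.16) in brown fat and -0.32 (SE 0.14, unadjusted p = 0.055) in iWAT by limma.

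Ifi27l2b had no start-site peak, and its assigned peaks lay 17 to 36 kb upstream in intergenic sequence. The peak 25 kb upstream was among the most accessible of all member peaks in brown fat, with 1216, 1114 and 969 normalized reads in flox, against 715, 653 and 687 in AKO. Its AKO mean was 37.7% lower, all AKO mice lay under all flox mice, and the log2 fold change was -0.52 (SE 0.18, limma unadjusted p = 0.021, adjusted p = 0.50). DESeq2 gave an adjusted p of 0.12 with PC1 and 0.015 without it, an alternative added after the values were seen, in which this was the 1 member called and 0.517% of all peaks were called lower and 0.512% higher. The same element in iWAT held 238, 220.1 and 232 in flox, against 190.2, 159.8 and 220.3 in AKO, where 1 AKO aliquot reached the flox range.

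The peak 35.7 kb upstream of Ifi27l2b was weak, with 49.1, 56.9 and 64.7 in flox, against 36.1, 42.5 and 31.7 in AKO brown fat. It had the smallest limma p of the brown fat member peaks (log2 fold change -0.88, SE 0.18, unadjusted p = 0.0018, adjusted p = 0.43), and iWAT had no peak there. At 30 kb upstream, brown fat values were 1230.0, 1094 and 839.5 in flox, against 915, 554 and 759.9 in AKO, and iWAT values were 231, 149 and 204 in flox, against 213, 169 and 181 in AKO. Both comparisons overlapped between genotypes. At 20.6 kb upstream, which was a peak in brown fat alone, flox mice had 306, 274 and 238 and AKO mice 249, 174 and 205. The nearest one, 17 kb upstream, held 61.7, 62.1 and 31.0 in flox, against 54.6, 94.6 and 58.5 in AKO brown fat, and 68.4, 45.6 and 71.4 in flox, against 57.6, 61.7 and 59.9 in AKO iWAT. It was the one peak of the locus with a positive log2 fold change, 0.45 in brown fat (SE 0.44, unadjusted p = 0.34).

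**Figure D3:**
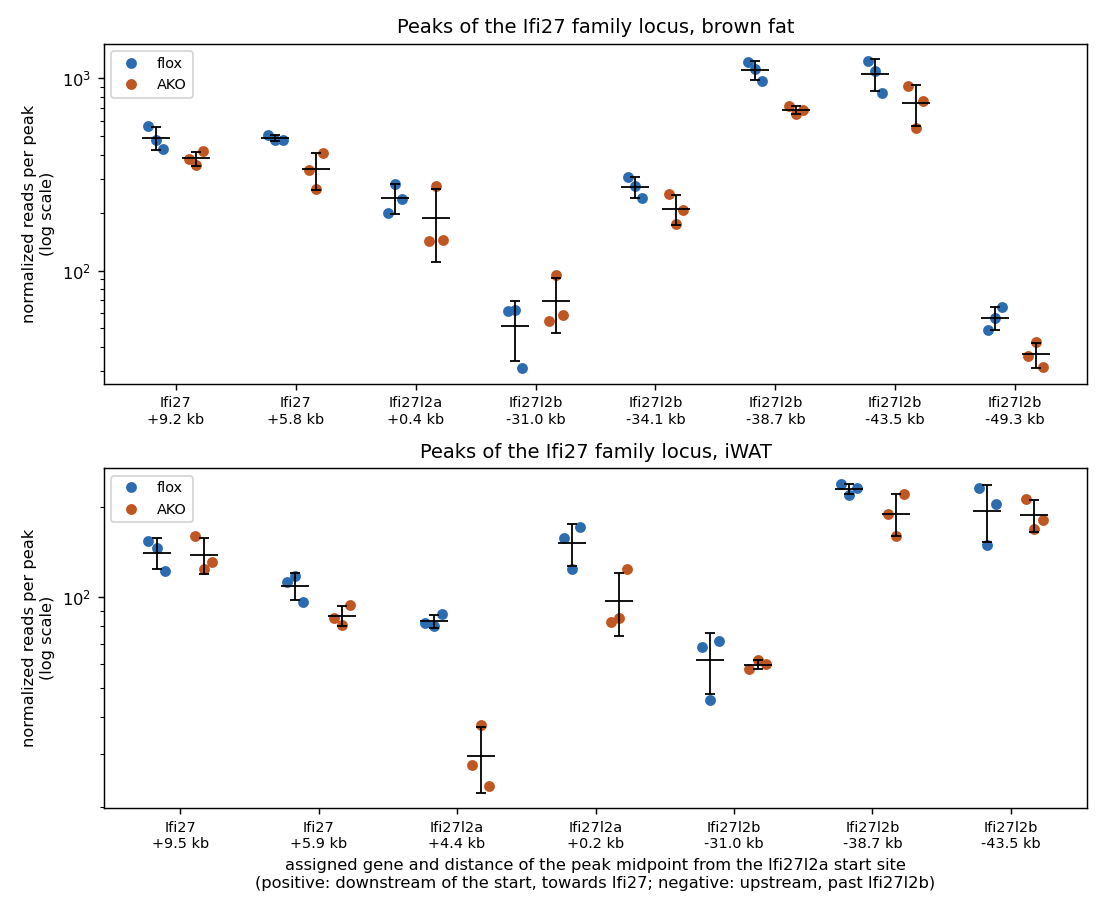
Normalized reads (log scale, y axis) in every peak of the Ifi27 family locus in brown fat (top) and iWAT (bottom), for 3 flox (blue) and 3 AKO (orange) samples, with the mean and SD in black. Peaks are ordered by distance from the Ifi27l2a start site, and the peak 4.4 kb downstream of it in iWAT has a mean of 83.3 in flox, against 29.6 in AKO.

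Sensors of viral RNA and the OAS family gave 11 peaks in brown fat and 10 in iWAT. None passed limma's adjusted threshold. In iWAT 3 were lower and 2 higher without overlap, where 10.3% and 10.6% of all peaks were, and in brown fat 0 were lower and 1 higher, where 8.84% and 8.77% of all peaks were. Ddx58 encodes the RNA sensor RIG-I. Its iWAT start-site peak (chr4:40238968-40240342) held 134, 130.1 and 157 normalized reads in flox, against 73.8, 85.6 and 74.8 in AKO. All AKO aliquots lay far under the flox aliquots, with a log2 fold change of -0.84 (SE 0.14, limma unadjusted p = 0.00048, adjusted p = 0.15, DESeq2 adjusted p = 0.0095).

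In brown fat the Ddx58 start-site peak held 127, 143 and 145 in flox, against 124, 207 and 169.8 in AKO, which overlapped. A peak assigned to Ddx58 but 45.9 kb away, in an intron of Aco1, went the other way, with 29.2, 37.8 and 43.0 in flox, against 49.6, 78.8 and 57.7 in AKO iWAT (log2 fold change 0.73, SE 0.22, limma unadjusted p = 0.011, adjusted p = 0.21). In brown fat this Aco1 peak held 97.7, 142 and 124 in flox, against 153, 201 and 144 in AKO, again without overlap, and it was the single member peak higher without overlap in both tissues. An intronic Ddx58 peak 26.7 kb past the start, weak and found in brown fat alone, held 29.3, 51.7 and 62.1 in flox, against 38.1, 56.0 and 33.6 in AKO. The values of the genotypes overlapped, and its log2 fold change of -0.75 with PC1 (limma unadjusted p = 0.012) was -0.13 without it.

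Ifih1 encodes MDA5, the sensor of long double-stranded RNA. Its start-site peak held 239.8, 209 and 235 in flox, against 238, 176 and 269.6 in AKO brown fat, and 112, 123 and 144 in flox, against 123, 136 and 144 in AKO iWAT. The genotypes overlapped in both tissues. For Dhx58, whose product LGP2 modulates both sensors, the start-site peak held 448, 397 and 353 in flox, against 357, 276 and 383 in AKO brown fat. In iWAT these were 169, 141 and 149.8 in flox, against 167, 122 and 151 in AKO, again overlapping. The second Dhx58 peak, 2.8 kb into the gene, had 103, 110.1 and 113 in flox, against 77.3, 106 and 74.8 in AKO brown fat (log2 fold change -0.59, SE 0.19, limma unadjusted p = 0.017), where 1 AKO mouse lay within the flox range.

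Eif2ak2 encodes PKR, a kinase that halts translation when it binds double-stranded RNA. It was the one start-site peak with higher AKO values and no overlap in iWAT, with 110.5, 137 and 119.6 in flox, against 165, 147 and 160.4 in AKO (log2 fold change 0.37, SE 0.14, limma unadjusted p = 0.032, adjusted p = 0.29). Its brown fat values, 359, 324 and 295 in flox, against 326, 261 and 318 in AKO, overlapped. Oas2, an enzyme that makes the activator of RNase L, had a weak iWAT start-site peak with 34.2, 41.1 and 39.6 in flox, against 18.4, 16.0 and 31.0 in AKO (log2 fold change -0.84, SE 0.24, limma unadjusted p = 0.0098). All AKO values were lower, at counts where the spread between aliquots was wide. Oasl2, an OAS-like protein, held 60.6, 44.5 and 55.9 in flox, against 56.5, 52.5 and 42.8 in AKO iWAT, which overlapped. Its relative Oasl1 had a log2 fold change of -0.36 in iWAT (unadjusted p = 0.054) with no overlap, and of -0.42 with and 0.32 without PC1 in brown fat.

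Antiviral effectors were the largest group, with 20 peaks in brown fat and 18 in iWAT. In iWAT the log2 fold change was below 0 at 16 of the 18 and had a median of -0.32, and 4 (22.2%) were lower and 1 (5.56%) higher without overlap, beside 10.3% and 10.6% of all peaks. In brown fat 9 of 20 were negative, the median was 0.03, and 1 (5%) was lower and 2 (10%) higher, beside 8.84% and 8.77%. None was called by limma, as was true of all peaks. In iWAT DESeq2 called 0.63% of the peaks it tested lower and 0.546% higher, and 1 of these effector peaks lower. That was the start-site peak of Gbp3, a GTPase that interferon gamma induces, with 158, 139 and 179 normalized reads in flox, against 92.2, 90.2 and 93.0 in AKO. The 3 AKO aliquots were nearly equal and 42.2% under the flox mean, with a log2 fold change of -0.78 (SE 0.14, limma unadjusted p = 0.00074, adjusted p = 0.15, DESeq2 adjusted p = 0.0095). In brown fat Gbp3 held 297, 226 and 254 in flox, against 299.99, 191 and 225 in AKO, which overlapped.

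Gbp2, a related GTPase, was not separated in either tissue. It held 281, 259 and 303 in flox, against 179, 203 and 269.6 in AKO brown fat, and 118, 58.9 and 74.0 in flox, against 57.6, 73.1 and 49.2 in AKO iWAT. The log2 fold changes were -0.40 (SE 0.25) and -0.43 (SE 0.27), each with an unadjusted limma p of 0.15. Ifit1 encodes a protein that binds foreign RNA caps, and its start-site peak pointed in opposite directions in the tissues. It held 21.9, 37.7 and 47.9 in flox, against 54.6, 48.3 and 59.5 in AKO brown fat, and 69.9, 78.9 and 79.2 in flox, against 48.4, 67.4 and 68.4 in AKO iWAT. Neither log2 fold change, 0.37 and -0.32, had a limma unadjusted p under 0.05.

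A second Ifit1 peak 21.5 kb past the start was lower in all AKO aliquots of iWAT, with a log2 fold change of -0.58 (SE 0.17, limma unadjusted p = 0.0093) and flox and AKO means of 88.4 and 59.3. In brown fat its log2 fold change was 0.00. The start-site peaks of Ifit2 and Ifit3 had log2 fold changes of -0.34 (SE 0.30) and -0.49 (SE 0.24) in iWAT with overlapping aliquots. Rsad2, which encodes viperin, an enzyme that makes a chain terminator of viral RNA, held 78.4, 93.8 and 125 in flox, against 109, 135 and 109 in AKO brown fat, and 91.2, 65.6 and 87.8 in flox, against 80.7, 63.9 and 72.7 in AKO iWAT. Cmpk2 shares a divergent locus with Rsad2, and its assigned peak 64.0 kb away held 49.1, 49.5 and 75.0 in flox, against 43.3, 71.5 and 34.5 in AKO brown fat. Both sets overlapped, and the log2 fold change of that Cmpk2 peak was -0.81 with PC1 (limma unadjusted p = 0.011) and -0.25 without it.

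Mx1, a GTPase that blocks viral nucleocapsids, had a start-site peak in iWAT alone, with 67.7, 46.7 and 49.1 in flox, against 27.7, 52.5 and 54.5 in AKO. Bst2, or tetherin, which holds budding virus at the membrane, had 284, 209.9 and 228 in flox, against 307, 191 and 254 in AKO brown fat, and 147, 137 and 113 in flox, against 115, 159 and 134 in AKO iWAT. Both overlapped between genotypes. The highest AKO values relative to flox were seen at an intergenic peak 49.8 kb past Isg20, an exonuclease gene, in iWAT: 44.2, 46.7 and 37.0 in flox, against 76.1, 66.2 and 82.3 in AKO. The groups were well apart, with a log2 fold change of 0.80 (SE 0.15, limma unadjusted p = 0.0010, adjusted p = 0.15, DESeq2 adjusted p = 0.11), whereas the start-site peak of Isg20 had -0.08. The remaining effector start-site peaks in iWAT, Ifi35, Xaf1, Cmpk2 and Mx2, had log2 fold changes from -0.20 to -0.11. Among them, Ifi35 (-0.20, limma unadjusted p = 0.18) was lower in all AKO aliquots, whereas the others overlapped.

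The ISG15 and ubiquitin or ADP-ribose system gave 18 peaks in brown fat and 13 in iWAT, of which 2 (11.1%) were lower and 1 (5.56%) higher without overlap in brown fat and 1 (7.69%) lower and 2 (15.4%) higher in iWAT. These shares were near those of all peaks, 8.84% and 8.77% in brown fat and 10.3% and 10.6% in iWAT. Isg15, the ubiquitin-like protein that names the system, had no peak, and the nearest one in either table lay 2207 bases from its start in brown fat and 2214 in iWAT. Usp18 removes ISG15 and restrains the interferon receptor. Its start-site peak held 371, 338 and 288 in flox, against 418, 284 and 367 in AKO brown fat (log2 fold change 0.41 with PC1, 0.09 without), and 174, 229 and 155 in flox, against 198, 184 and 242 in AKO iWAT. The genotypes overlapped in both. An intronic Usp18 peak of iWAT held 32.8, 34.5 and 36.2 in flox, against 42.6, 54.8 and 43.8 in AKO, without overlap (log2 fold change 0.43, SE 0.15, limma unadjusted p = 0.020).

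Trim25 encodes the ubiquitin ligase that activates RIG-I. Its start-site peak held 277, 262 and 257 in flox, against 353, 239 and 389 in AKO brown fat (log2 fold change 0.56, SE 0.21, limma unadjusted p = 0.033), and 178, 191 and 216 in flox, against 179, 161 and 117 in AKO iWAT (-0.38, SE 0.19, unadjusted p = 0.085). Both overlapped. An intergenic peak 25.1 kb from the Trim25 start held 112, 83.4 and 93.0 in flox, against 55.3, 58.2 and 59.9 in AKO iWAT, all AKO aliquots being lower (log2 fold change -0.71, SE 0.15, limma unadjusted p = 0.0018, adjusted p = 0.15, DESeq2 adjusted p = 0.10). In brown fat that peak had 103, 137 and 127 in flox, against 164, 118 and 153 in AKO, which overlapped. Parp14, an ADP-ribosyltransferase, had a start-site peak with 171, 197 and 172 in flox, against 239, 284 and 225 in AKO brown fat, higher in all AKO mice, with a log2 fold change of 0.34 (SE 0.20, limma unadjusted p = 0.13). In iWAT it held 108, 85.6 and 88.7 in flox, against 86.4, 55.9 and 92.0 in AKO, which overlapped. Parp9 and Dtx3l form a complex and share a promoter, whose peak is assigned to Dtx3l and had log2 fold changes of 0.02 and -0.16.

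The transcription factors Irf1, Irf7, Irf9 and Stat2 gave 15 peaks in brown fat and 12 in iWAT, and in iWAT the median log2 fold change was 0.01, 0 peaks were without overlap in either direction (all peaks, 10.3% and 10.6%) and 0 had an unadjusted limma p under 0.05. In brown fat 0 were lower and 2 (13.3%) higher without overlap, beside 8.84% and 8.77% of all peaks. Stat2 held 652, 517 and 383 in flox, against 611, 349.6 and 516 in AKO brown fat at its start site, and 307, 266 and 239 in flox, against 252, 296 and 289.8 in AKO iWAT. Both overlapped, and the brown fat log2 fold change of 0.48 (SE 0.18, limma unadjusted p = 0.028) turned to -0.07 without PC1. Irf9, its partner in the ISRE-binding complex, held 455, 392 and 341 in flox, against 404, 226 and 381 in AKO brown fat, and 249, 212 and 225 in flox, against 184, 204 and 219 in AKO iWAT, again with overlap.

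Irf7, the factor that amplifies interferon production, had 297, 307 and 352 in flox, against 376, 328 and 466 in AKO brown fat, and 115, 108 and 112 in flox, against 114, 140.4 and 134 in AKO iWAT. Irf1 had 449, 347 and 357 in flox, against 467, 363 and 455 in AKO brown fat, and 344, 359 and 372 in flox, against 379, 323 and 327 in AKO iWAT. Neither start-site peak was separated in either tissue. The other Irf1-assigned peaks lay 4 to 43 kb past its start, several of them inside the gene Gm12216, and one 16.0 kb away held 118, 102 and 76.3 in flox, against 124, 102 and 126 in AKO brown fat (log2 fold change 0.59, SE 0.19, limma unadjusted p = 0.016).

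Of the antigen processing genes, Psmb8 encodes a catalytic subunit of the immunoproteasome and Tap1 a subunit of the peptide transporter. The Psmb8 start-site peak held 232, 268 and 248 in flox, against 303, 334 and 301 in AKO brown fat, all AKO mice being higher, but 226, 272 and 217 in flox, against 209.8, 199 and 179.6 in AKO iWAT, all AKO aliquots being lower. The log2 fold changes were 0.23 (SE 0.18, limma unadjusted p = 0.23) and -0.28 (SE 0.15, unadjusted p = 0.10). The Tap1 peak, which also covers the start of Psmb9, held 877, 813 and 744 in flox, against 858, 647 and 792 in AKO brown fat, and 349, 345 and 340.0 in flox, against 289, 335 and 299 in AKO iWAT. The genotypes overlapped in brown fat and were apart by a small step in iWAT (log2 fold change -0.17, SE 0.13, unadjusted p = 0.23).

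Levels differed widely among start sites. Per kb of peak, the flox means in brown fat were highest at Dhx58 (767 ± 91.5 normalized reads per kb, SD, n = 3), Stat2 (696 ± 181) and Usp18 (573 ± 71.6) and lowest at Parp14 (126 ± 10.4) and Ddx58 (119 ± 8.54), with Ifi27l2a at 261 ± 46.3. In iWAT they were highest at Ifi27 (463 ± 55.1), Usp18 (449 ± 93.0) and Stat2 (427 ± 53.4), which lay within each other's SD, and lowest at Ddx58 (102 ± 10.4) and Oasl2 (84.8 ± 13.1), with Ifi27l2a at 223 ± 36.1. Among the iWAT start sites lower in AKO without overlap, Ddx58 and Gbp3 (155 ± 19.5) had the lowest flox levels. The others ranged from 192 ± 18.2 at Oas2 to 339 ± 4.57 at Tap1, which was among the more accessible promoters of the group.

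In the tissues together, 53 peaks of brown fat overlapped 53 of iWAT by at least 1 base, all with the same gene. Of these, 13 had a negative log2 fold change in both tissues, 14 a positive one in both, 24 were positive in brown fat and negative in iWAT, and 2 the reverse. Of the 28 paired start-site peaks, 22 were negative in iWAT and 6 in brown fat with PC1, or 12 without it. The tables differ in pooling as well as in tissue and, according to the methods, in the sequencing instrument. The iWAT mice were kept in the cold, whereas the housing temperature of the brown fat mice is not given in the sources used here. A difference between the tissues was not tested.

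**Figure D4:**
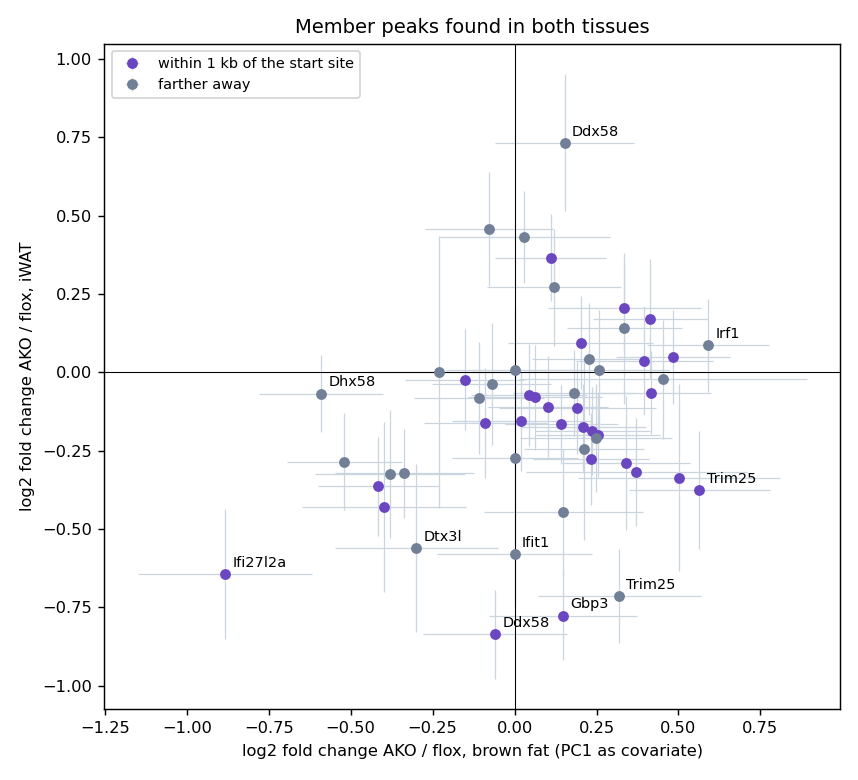
Log2 fold change of AKO over flox in brown fat (x axis) and iWAT (y axis) for the 53 member peaks found in both tables, with SE bars, start-site peaks in purple and others in grey. Ifi27l2a is the start-site peak that is most negative in brown fat (-0.88) and is also negative in iWAT (-0.64), whereas Ddx58 and Gbp3 are near 0 in brown fat.

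The choice of the PC1 covariate in brown fat moved many members. Oasl1 (-0.42 with and 0.32 without PC1), Stat2 (0.48 and -0.07) and the Ifi27l2a start site (-0.88 and -0.40) were among them. Start-site peaks with a negative log2 fold change numbered 6 of 28 with PC1 and 12 of 28 without. At the Ifi27l2b peak 25 kb upstream the values were -0.52 and -0.68.

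**Figure D5:**
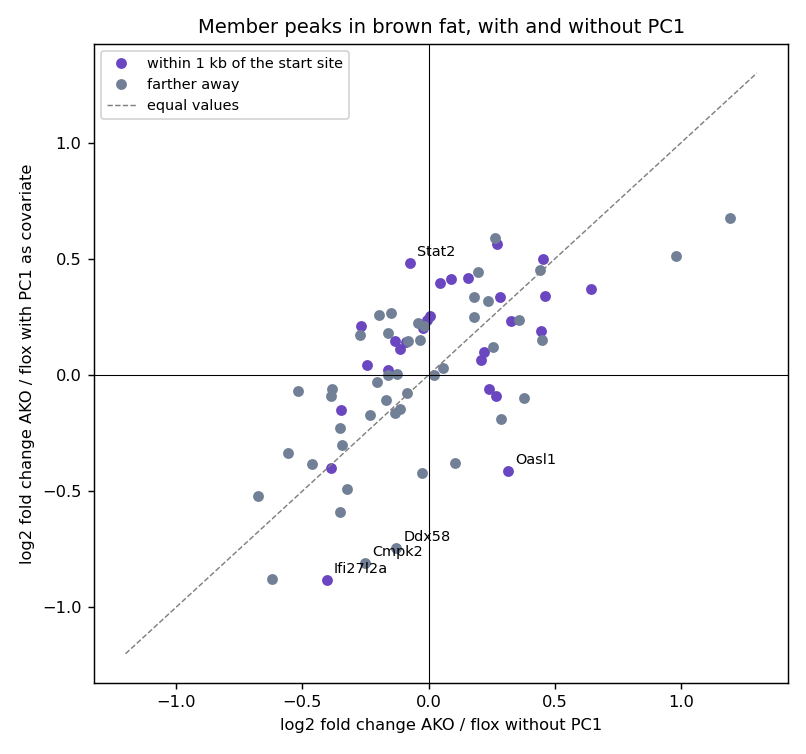
Log2 fold change of AKO over flox of the 74 member peaks in brown fat without (x axis) and with (y axis) PC1 as covariate, start-site peaks in purple and others in grey, and the dashed line marking equal values. Labelled peaks moved by more than 0.53 or belong to Ifi27l2a, and 25 peaks lie in the quadrants of opposite sign.

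Other genes of the interferon pathway, 27 in all, gave 108 peaks of 25 genes in brown fat and 79 peaks of 25 genes in iWAT. They comprised receptors and kinases, Stat3 and further IRF factors, nucleic acid sensing adaptors and feedback inhibitors. None was called by limma or DESeq2 in either tissue. Of all peaks tested, DESeq2 called 0.298% lower and 0.11% higher in brown fat, and 0.63% and 0.546% in iWAT. At an unadjusted limma p under 0.05, 4 (3.70%) were lower and 5 (4.63%) higher in brown fat, beside 5.59% and 3.46% of all peaks, and 7 (8.86%) lower and 3 (3.80%) higher in iWAT, beside 7.42% and 7.61%. Without overlap, 4 (3.70%) were lower and 10 (9.26%) higher in brown fat, beside 8.84% and 8.77% of all peaks, and 11 (13.9%) lower and 11 higher in iWAT, beside 10.3% and 10.6%. The iWAT median was -0.02. Irf2, a factor that competes with Irf1 for the ISRE, had 3 of the 7, and its peak with the most reads among them held 157, 142 and 135 in flox, against 91.1, 115 and 98.4 in AKO (log2 fold change -0.51, limma unadjusted p = 0.0091). Jak1, the kinase that the interferon receptors share, had an iWAT peak with 127, 110.1 and 107 in flox, against 96.8, 78.8 and 75.9 in AKO (log2 fold change -0.45, limma unadjusted p = 0.020). Both were lower in every AKO aliquot.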

How the data were processed

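Nuclei of whole brown and inguinal fat were profiled by ATAC-seq. According to the methods, the authors trimmed adapters, mapped to mm10 with BWA 0.7.17-r1188, removed duplicates with Picard 2.8.14, kept autosomal read pairs of high mapping quality and called broad peaks with MACS2 2.1.1.20160309. The signal columns, as deposited by the authors, hold reads per peak over 1 DESeq2 size factor for each sample. The deposited tables also hold the authors' own DESeq2 comparison, which was not used: log2 fold changes and p-values in both, with errors and a Wald score in brown fat alone.

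Here, reads were recovered from the signal columns (100% of values whole within 0.001 reads). log2(normalized reads + 1) was fitted over all peaks of a table with limma 3.58.1 in R 4.3.3, comparing AKO with flox, p-values were adjusted by Benjamini-Hochberg and called under 0.1, and PC1 served as covariate in brown fat. Tables were normalized separately and each was tested alone. The fit was tested on simulated reads. Alternatives were TMM and edgeR 4.0.16, DESeq2 1.42.0, other normalizations, pseudocounts and filters, samples left out and replicate blocks. Distances are those of peak midpoints from GENCODE vM21 start sites, with the file's 0-based starts raised by 1. Motifs were read from the GRCm38.p6 genome, and RefSeq promoters matched 29 of the 39 genes.

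Members, gene lists and the rule for named peaks were chosen with earlier results of these data known: every Ifi27 family peak, the 4 member peaks with the smallest limma p per table and direction, and 20 start sites. The peaks of Oas2, Oasl1, Ifit2, Ifit3, Ifi35, Xaf1, Mx2 and Dtx3l, the start sites of Gbp3, Cmpk2 and Isg20 in the other tissue or beside a named peak, the second Ifit1 and Dhx58 peaks, Irf2 and Jak1 were named after their values were seen. Replicate numbers are not stated to pair the samples, and the main fits used no pairing. A gene of the pathway list is not reported here.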

Additional observations from a re-analysis of the deposited data

Results flagged for a closer look

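At 2 start-site peaks the samples moved in opposite directions in the tissues, with all AKO mice above all flox mice in brown fat and all AKO aliquots under all flox aliquots in iWAT. At Ifit1 the log2 fold change was 0.37 in brown fat and -0.32 in iWAT, and at Psmb8 it was 0.23 and -0.28. The difference between the tissues was not tested, and none of these limma values had an unadjusted p under 0.05.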

How the results depend on the processing

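In brown fat 0 member peaks were called in every alternative except DESeq2 without PC1, chosen after seeing the data, which called 1 lower, the Ifi27l2b peak 25 kb upstream, beside 0.517% of all peaks lower and 0.512% higher. Peaks lower at an unadjusted p under 0.05 (6) numbered 3 without PC1, 3 with a replicate block and no PC1, 3 in DESeq2 without PC1 and 1 at start sites. The higher ones (3) numbered 1 after centring on GC content, 5 in edgeR, 5 in limma-trend, 5 with the replicate block and no PC1, and 1 to 4 with a sample left out. For these alternatives the share of all peaks at that threshold was not counted. At start sites 0.959% of all start-site peaks were lower and 2.56% higher. Peaks without overlap (7 and 7) numbered 4 lower and 4 higher after GC centring, where the share of all peaks was not counted. At start sites they numbered 1 and 4, beside 6.07% and 9.96% of all start-site peaks. The median (0.11) was 0.20 at start sites, -0.039 without PC1, with the block and no PC1, and in DESeq2 without PC1. The Stat2 start site turned to -0.075 without PC1, with or without the block, and to -0.069 in DESeq2.

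In iWAT, calls (0) were 3 lower and 0 higher in DESeq2, beside 0.63% and 0.546% of the peaks it tested. They were 6 lower and 2 higher in edgeR (2.52% and 2.15% of all peaks), and 6 and 1 in limma-trend (2% and 1.64%). Peaks lower at an unadjusted p under 0.05 (7) numbered 15 in edgeR, 13 in limma-trend, 4 at start sites, 3 with PC1 added and 11 with the replicate block. For these alternatives the share of all peaks at that threshold was not counted, so the counts cannot be read as particular to the members. At start sites 3.29% of all start-site peaks were lower and 3.93% higher. The higher ones (5) numbered 3 in DESeq2, 3 in edgeR, 3 in limma-trend, 3 with the block, 1 at start sites, 0 with PC1 and 2 to 6 with an aliquot left out, the fewest without flox replicate 1. Higher peaks without overlap (5) numbered 1 at start sites, beside 9.51% of all start-site peaks. The median (-0.16) was -0.10 with PC1 and -0.22 to -0.11 with an aliquot left out. PC1 separated the genotypes in iWAT, and adding it turned Ddx58 45.9 kb away to -1.50, Eif2ak2 to -0.30, the Ifi27l2a start site to 1.55, the distal Trim25 peak to 0.92 and the intronic Usp18 peak to -0.45. ISRE matches in whole peaks numbered 23 in brown fat and 27 in iWAT, and GAS matches in iWAT 14. The cause of these shifts was not tested. Replicate numbers are not stated to pair the samples. Deviations of same-numbered samples from their group means correlated at 0.49, 0.06 and -0.24 in brown fat and -0.04, -0.05 and -0.06 in iWAT. With 3 samples per genotype these values cannot decide whether samples were paired.

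The median peak held 62 to 226 reads, and the effect of depth was not tested. With 3 samples per genotype the median SE of a member was 0.21 in brown fat and 0.17 in iWAT.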

Other observations

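The RefSeq promoter windows of the members, from 250 bases before to 50 after each start, held an ISRE match in 13 of 35 windows (37.1%), against 3.44% of all 32851 windows, and a GAS match in 8 (22.9%), against 8.30%. These windows belong to 29 of the 39 genes, and they do not rest on the peak calls. In iWAT, 7 of the 23 start-site peaks with an ISRE match were lower and 1 was higher without overlap, beside 9.56% and 9.51% of all start-site peaks, with a median log2 fold change of -0.16. Of the 9 without a match, 2 were lower and 0 higher, with a median of -0.20.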
